A study of Mus musculus with 8 samples.

Results

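The 40 genes described here act in mitosis and in the G2/M transition, and they were chosen by name from a table of raw counts that lists 56748 genes in 8 libraries. They comprise CDK1 with its cyclins and activators (8 genes), the kinases and motors that build the spindle (7), the chromosomal passenger complex (3), the spindle assembly checkpoint (5), ubiquitin-dependent control of mitotic entry and exit (3), the centromere and kinetochore (6), the central spindle and cytokinesis (6) and the mitotic chromosome (2). Counts came from mRNA sequencing of primary hepatocytes, the main epithelial cell of the liver, isolated from mice of the Yap fl/fl; Taz fl/fl line on a C57BL/6J background. Mice aged 7 to 8 weeks had received AAV8-TBG-Cre, which yields Yap/Taz HepKO cells (termed knockout), or AAV8-TBG-Null (termed wild type, although both floxed alleles are present), 10 days before isolation. Cre was driven by the promoter of thyroxine-binding globulin, which is active in hepatocytes, so that other liver cells of the same mice kept both genes. Cells of each genotype were grown for 24 h on collagen-coated hydrogels of 1 kPa (soft) or 20 kPa (stiff), and each of the 4 groups comprised 2 libraries. The sources differ on the sex of the mice, and they do not say whether the 2 libraries of a group came from separate mice, so that p-values measure the spread between these libraries, which may be technical.

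Cells enter mitosis when CDK1, bound to cyclin A or cyclin B, is switched on by CDC25 phosphatases, and they leave it when the anaphase-promoting complex marks cyclin B and securin for destruction. Most of the genes for this machinery are transcribed late in the cycle under the control of the MuvB complex, which acts with B-MYB and FOXM1 at a promoter element called the cell cycle genes homology region (CHR), often with CCAAT boxes bound by NF-Y nearby, and which represses the same promoters in resting cells as part of the DREAM complex. Hepatocytes of the adult liver rarely divide, but can re-enter the cycle after loss of liver mass and in culture. YAP and TAZ, the coactivators encoded by Yap1 and Wwtr1, act through TEAD factors and are known to drive proliferation when a cell is attached to a stiff support.

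The promoters are shown because they hold the feature that most of the 40 genes share. RefSeq promoter windows (GRCm38.p6, 250 bases before to 50 after the annotated transcript start) were matched by symbol for 34 of the 40 genes, in 37 windows, and those of Ccna2, Cdc25c, Foxm1, Tpx2, Aurkb and Kif20a were not analysed here. Both strands were searched for CHR (TTTGAA or TTCGAA), for the box CCAAT, for an E2F site (TTTGGCGC or TTTCGCGC) and for a TEAD site (GGAATG). The 200 bases before the start are given 5′ to 3′ on the strand of the gene for 3 regulators of mitotic entry, a checkpoint gene with little change and a kinase, with CHR and CCAAT matches of either strand in capitals.
Cdk1, chr10:69352913-69353112, minus strand: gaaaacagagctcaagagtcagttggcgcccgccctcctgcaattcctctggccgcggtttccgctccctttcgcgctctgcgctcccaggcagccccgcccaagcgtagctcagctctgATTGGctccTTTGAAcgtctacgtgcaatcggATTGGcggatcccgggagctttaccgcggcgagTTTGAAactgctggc
Ccnb1, chr13:100786487-100786686, minus strand: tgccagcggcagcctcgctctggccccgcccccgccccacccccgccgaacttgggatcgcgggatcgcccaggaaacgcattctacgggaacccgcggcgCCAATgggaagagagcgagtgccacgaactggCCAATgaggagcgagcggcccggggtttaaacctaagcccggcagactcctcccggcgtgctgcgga
Ccnb2, chr9:70421555-70421754, minus strand: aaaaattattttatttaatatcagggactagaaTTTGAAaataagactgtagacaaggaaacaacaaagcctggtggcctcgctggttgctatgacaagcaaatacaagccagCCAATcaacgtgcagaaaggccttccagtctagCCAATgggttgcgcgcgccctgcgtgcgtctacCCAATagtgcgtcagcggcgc
Plk1, chr7:122159235-122159434, plus strand: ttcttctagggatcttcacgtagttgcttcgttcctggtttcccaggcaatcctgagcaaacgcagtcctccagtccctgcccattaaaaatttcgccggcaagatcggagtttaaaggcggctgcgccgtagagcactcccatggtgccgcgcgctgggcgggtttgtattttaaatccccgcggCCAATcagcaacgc
Bub3, chr7:131560170-131560369, plus strand: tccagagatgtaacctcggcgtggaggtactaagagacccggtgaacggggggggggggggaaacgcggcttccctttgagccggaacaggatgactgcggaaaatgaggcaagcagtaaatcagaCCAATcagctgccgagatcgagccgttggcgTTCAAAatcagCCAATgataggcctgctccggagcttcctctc

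A CHR match was present in the windows of 27 of the 34 genes (79.4%), against 21.7% of the 27025 genes in the promoter table, and a CCAAT match was present in 79.4% against 41.1%. In Cdk1 (ENSMUSG00000019942) the CHR matches began at -71 and -15, counted from 0 at the annotated start, and CCAAT matches on the opposite strand lay between them and upstream. Cdk1 was also the only member of the 34 with a match to the E2F letters (2.94% against 0.929% of all genes), left in lower case above. In Plk1 (ENSMUSG00000030867) the CHR match began at 31, and in Ccnb2 (ENSMUSG00000032218) matches began at -167 and 5, so that those at 31 and 5 fall after the start and are not printed. Ccnb1 (ENSMUSG00000041431) had CCAAT matches at -99 and -67 and no CHR match in the window, which says only that these letters were not found there. Bub3 (ENSMUSG00000066979), whose level moved little in the libraries, held both elements, with a CHR match at -43 between CCAAT matches at -74 and -32. Matches to the TEAD letters were found in 4 members (Nusap1, Mad2l1, Ube2c and Racgap1), which is 11.8% against 16.6% of all genes. Among single spellings, TTTGAA was found in 73.5% of the members and 20.2% of all genes, and TTCGAA in 11.8% and 1.8%.

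The CHR matches gathered at the transcript start. Of the 37 windows of the members, 51.4% held a match beginning in the first 50 bases from the start and 21.6% in the 50 bases before it, where 2.46% and 2.97% of all 32851 windows did. No member window held a match in the 50 bases farthest upstream, where 4.4% of all windows did. Windows of the same gene overlap and the letters are short, so these shares describe the sequences and do not show that a factor was bound.

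**Figure D1:**
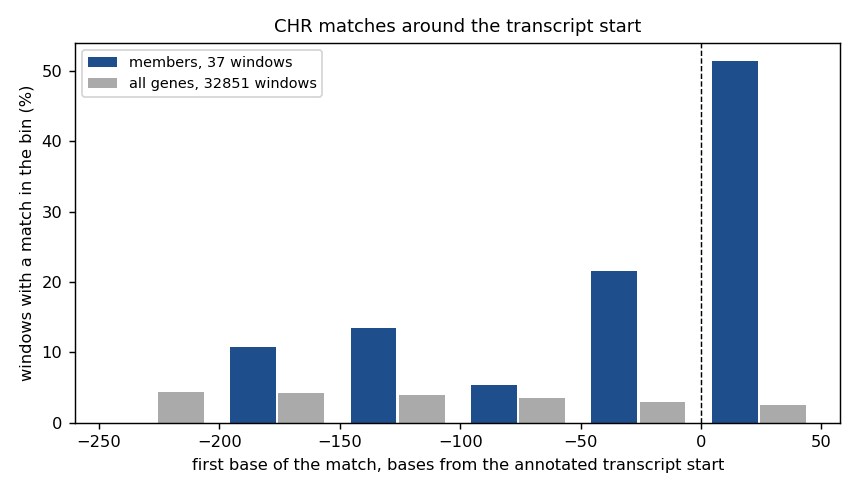
Percentage of promoter windows (y axis) that hold a CHR match beginning in each bin of 50 bases, by distance from the annotated transcript start (x axis, in bases), for the 37 windows of the members (blue) and all 32851 windows (grey). The members rise to 51.4% in the bin that begins at the start, where all windows are at 2.46%.

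The libraries held 18324083 to 26442310 counts, so that the 3 counts taken as a floor correspond to 0.113 to 0.164 CPM, the counts scaled to the size of the library. As a check of the knockout, Yap1 had 1720 to 2913 counts in the wild-type and 606 to 747 in the knockout libraries, and Wwtr1 had 748 to 1325 and 277 to 410. Expression was low for most members, and 39 of the 40 passed the filter on low counts (14279 genes in all). No member passed through the wild-type stiff libraries alone, but Ttk and Cenpf reached the cut-off of 0.487 CPM in no knockout library. Bub1, Kif23 and Cdc25b reached it in only 1 knockout library, on soft hydrogel. Cdc25c, the phosphatase that activates CDK1 at mitotic entry, was not tested: it had 5 and 3 counts in wild-type soft, 11 and 4 in wild-type stiff, 3 and 1 in knockout soft and 4 and 1 in knockout stiff libraries. Between replicates of a group, the counts of the members differed by 1.07 (wild-type stiff) to 2.48 (knockout stiff) in chi-square for each degree of freedom, where sampling noise alone gives a value near 1.

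The summed level of the 40 genes was 179 and 172 CPM on soft and 354 and 344 CPM on stiff hydrogel in wild-type cells, against 142 to 143 CPM on soft and 138 to 141 CPM on stiff hydrogel in knockout cells. Bub3 and Cks2 made up a large part of that sum, and without them the ranges were 94.97 to 98.4, 259 to 264, 62.2 to 63.9 and 58.8 to 60.6 CPM in the same order. The wild-type stiff libraries thus stood apart from the other 6, which lay within a narrower band with the knockout libraries lowest. In these cultures a larger share of dividing cells and more mRNA per cell cannot be told apart. The 30 genes of DNA replication, set beside them for scale, summed to 428 to 432 CPM in wild-type soft, 1001 to 1020 in wild-type stiff, 364 to 365 in knockout soft and 364 to 371 CPM in knockout stiff libraries.

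**Figure D2:**
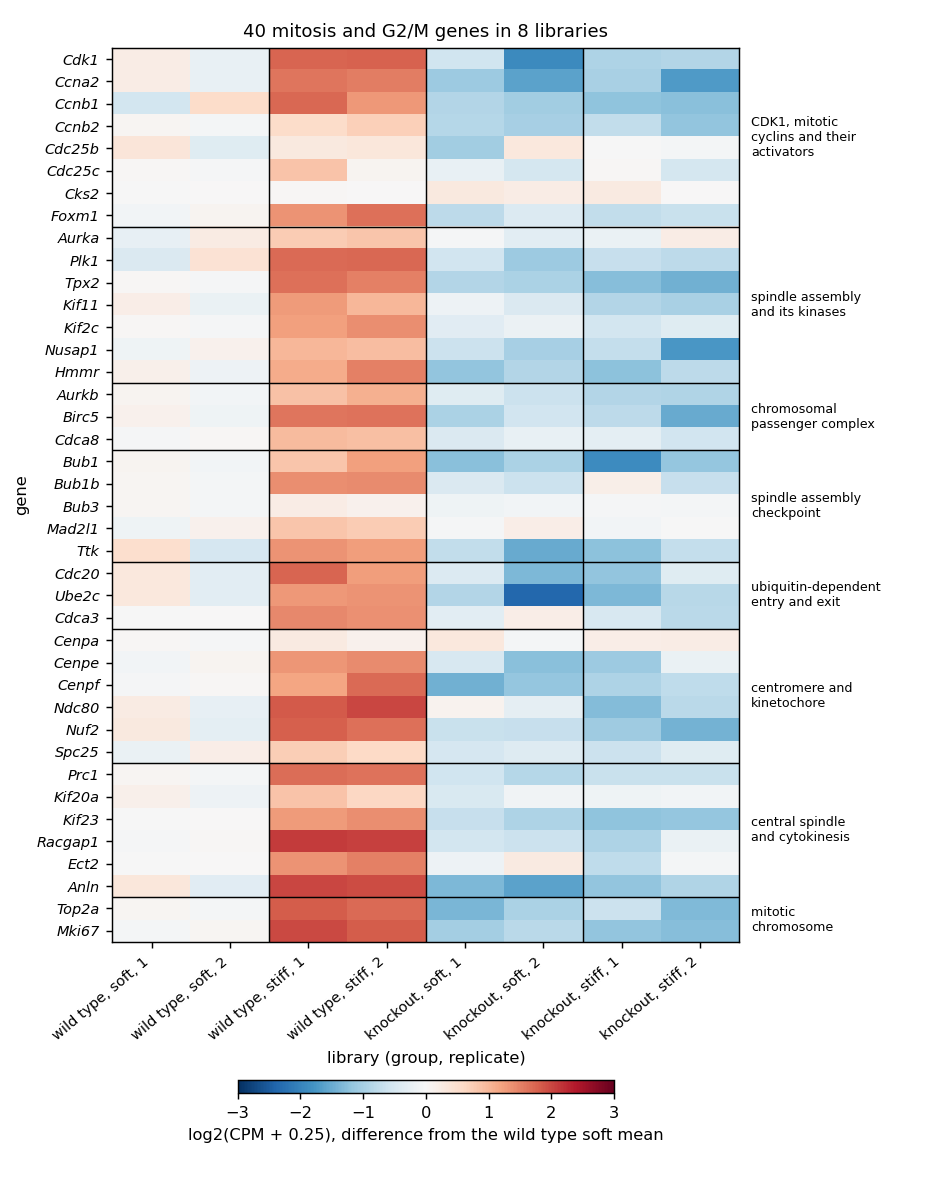
Heat map of the 40 genes (rows, grouped by role) in the 8 libraries (columns), coloured by log2(CPM + 0.25) minus the mean of the 2 wild-type soft libraries. The wild-type stiff columns are red in most rows, the knockout columns are pale to blue on both hydrogels, and Cks2, Bub3 and Cenpa stay near white throughout.

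In wild-type cells, the comparison of stiff with soft hydrogel asks whether the machinery of mitosis follows the stiffness of the support. Of the 39 tested members, 34 were called higher (edgeR quasi-likelihood test, Benjamini-Hochberg adjusted p under 0.05 and a log2 fold change beyond 0.5 in either direction), where 10.0% of all tested genes were, and 0 were called lower, where 9.26% of all genes were. The 39 log2 fold changes were all above 0, from 0.03 for Cks2 to 2.21 for Racgap1, with a median of 1.51, beside a median of -0.01 over all tested genes. The 5 not called were Ccnb2, Cdc25b, Cks2, Bub3 and Cenpa. In knockout cells the same comparison called 0 members higher and 0 lower, where 0.0140% and 0.00700% of all genes were called, and 19 members lay above and 20 below 0 with a median of -0.03. At an unadjusted p under 0.05 in edgeR, 0 of the members were higher and 2 lower (Kif11 and Ndc80), beside 4.36% and 3.19% of all genes. In DESeq2 1 member passed. The 95% intervals of the knockout changes were often wide. For 31 of the 39 the upper bound lay below the estimate in wild-type cells, and for 30 it lay below 1 on the log2 scale. The first count leaves out the error of the wild-type estimate, and the responses of the genotypes are compared by the interaction below.

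**Figure D3:**
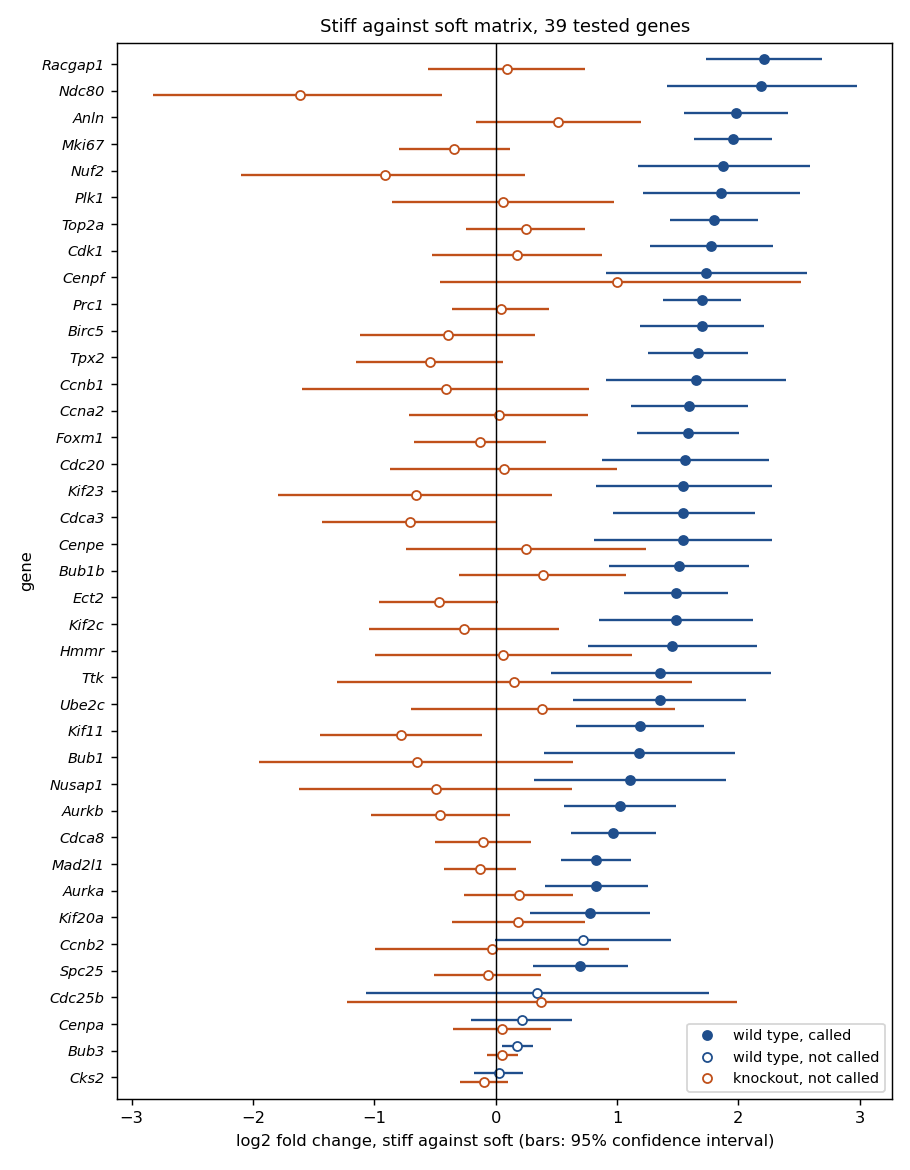
Log2 fold change of stiff against soft hydrogel for the 39 tested members (rows, ordered by the wild-type value), with 95% confidence intervals, in wild-type (blue) and knockout cells (orange). Filled circles were called and open circles were not. The 34 filled circles are all wild type and lie to the right of 0, and the knockout values lie on both sides of it.

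CDK1, the kinase that drives entry into mitosis, had 4.74 and 3.44 CPM in the wild-type soft and 14.1 and 14.3 CPM in the wild-type stiff libraries, 2.58 and 0.895 CPM in knockout soft and 2.01 and 2.08 CPM in knockout stiff libraries. The wild-type stiff libraries were well above all others, and the 2 knockout groups overlapped. Its log2 fold change with stiffness was 1.78 ± 0.24 (SE, n = 2 libraries a group, edgeR adjusted p = 9.07e-06) in wild-type cells, a 3.43-fold rise, and 0.18 ± 0.33 (adjusted p = 0.925) in knockout cells. Ccna2, which encodes the cyclin A of S phase and G2, had 3.70 and 2.61 CPM on soft and 9.93 and 9.45 CPM on stiff hydrogel in wild-type cells, and 1.33, 0.845, 1.45 and 0.791 CPM in the knockout libraries. Its 3.02-fold rise in wild-type cells (log2 1.60 ± 0.23, adjusted p = 1.72e-05) stood against a log2 change of 0.03 ± 0.35 in knockout cells.

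The cyclin B genes, whose products form the mitotic kinase with CDK1, differed from each other. Ccnb1 went from 0.809 and 2.00 CPM on soft to 4.87 and 3.56 CPM on stiff hydrogel in wild-type cells, and was between 0.395 and 0.585 CPM in the 4 knockout libraries. Its wild-type groups did not overlap although the soft replicates were far apart, and the log2 fold change was 1.65 ± 0.35 (adjusted p = 0.000997). Of its transcript windows of 64 bases, 38% occur in another gene too (chiefly the pseudogene Ccnb1-ps), so that its count is uncertain. Ccnb2 had 1.39 and 1.28 CPM on soft and 2.07 and 2.34 CPM on stiff hydrogel in wild-type cells. These groups did not overlap, but the change of 0.72 ± 0.34 was not called (adjusted p = 0.105). In knockout cells Ccnb2 was at 0.624, 0.547, 0.703 and 0.445 CPM, below each wild-type library.

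Foxm1, the transcription factor that switches on late cell cycle genes, had 2.81 and 3.17 CPM in wild-type soft, 8.00 and 9.86 in wild-type stiff, 1.64 and 2.19 in knockout soft and 1.69 and 1.78 CPM in knockout stiff libraries. Its rise on stiff hydrogel was 3.0-fold in wild-type cells (log2 1.58 ± 0.20, adjusted p = 4.07e-06), with every knockout library below every wild-type one. The phosphatase gene Cdc25b was near the limit of detection, from 0.0781 to 0.616 CPM with overlapping groups, and its change was 0.34 with a 95% interval from -1.07 to 1.76 in wild-type cells. Cks2, which encodes a small subunit that binds CDK1, was at 21.0 and 21.4 CPM in wild-type soft and 21.6 and 21.4 CPM in wild-type stiff libraries. It was the only tested member whose wild-type interval (-0.18 to 0.23) stayed within 0.25 of 0, and it was at 26.0, 24.6, 25.7 and 21.5 CPM in the knockout libraries. For Cks2, 28.1% of the windows are shared with another gene.

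**Figure D4:**
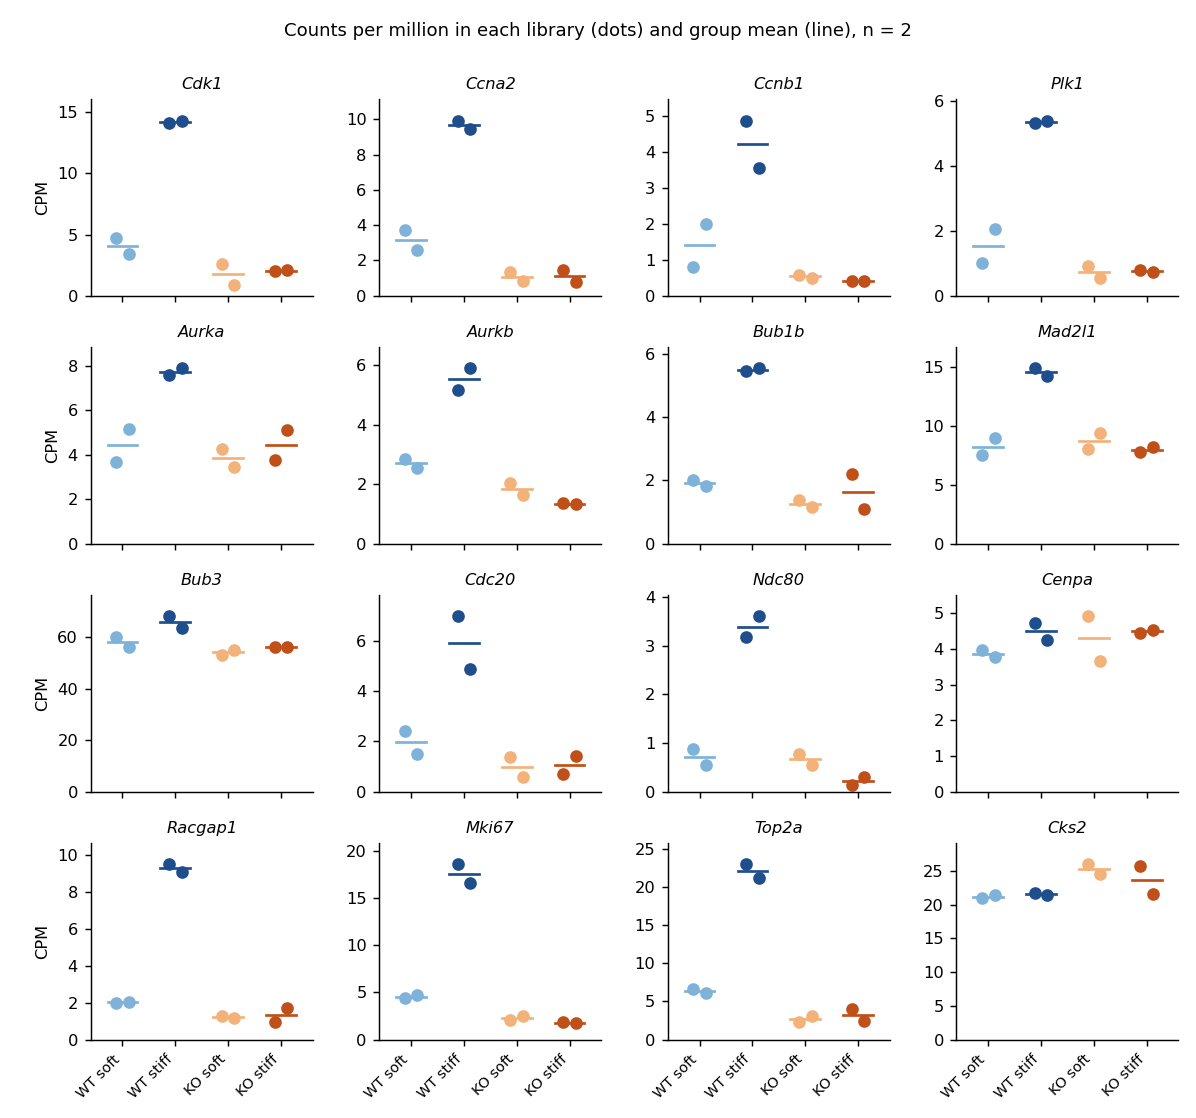
CPM of 16 members in each of the 8 libraries (points) with the mean of each group (line, n = 2), on linear axes from 0. For Cdk1, Ccna2, Plk1, Racgap1, Mki67 and Top2a both wild-type stiff points lie far above all others, whereas for Bub3, Cenpa and Cks2 the 4 groups lie close together.

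The genes for spindle assembly rose together on stiff hydrogel in wild-type cells, with 7 of 7 called and a median log2 fold change of 1.45. Plk1, a kinase that acts at the centrosome, kinetochore and midbody, had 1.00 and 2.05 CPM on soft and 5.30 and 5.39 CPM on stiff hydrogel in wild-type cells. In knockout cells it stayed at 0.898, 0.547, 0.796 and 0.741 CPM, below the wild-type libraries on either support. Its change was 3.62-fold in wild-type cells (log2 1.86 ± 0.31, adjusted p = 8.43e-05) and 0.06 ± 0.43 on the log2 scale in knockout cells. Tpx2, which activates Aurora A and nucleates microtubules around chromosomes, was at 2.77 and 2.67 CPM in wild-type soft, 9.02 and 8.28 in wild-type stiff, 1.37 and 1.29 in knockout soft and 0.984 and 0.840 CPM in knockout stiff libraries. Aurka itself moved less: 3.66 and 5.17 CPM on soft and 7.57 and 7.88 CPM on stiff hydrogel in wild-type cells, and 3.43 to 5.09 CPM in knockout cells, overlapping the wild-type soft libraries. The wild-type change of Aurka was 0.83 ± 0.20 (adjusted p = 0.00288) and lost the call without the first wild-type soft library (0.59, adjusted p = 0.0608, the highest of a range from 6.32e-05 over the alternatives).

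Among the motors and microtubule-associated proteins of the spindle, Kif11, the plus-end motor that separates the spindle poles, was at 2.46 and 1.78 CPM in wild-type soft and 5.40 and 4.42 CPM in wild-type stiff libraries. In knockout cells Kif11 was at 1.87 and 1.49 CPM on soft and 1.03 and 0.939 CPM on stiff hydrogel, which is a log2 change of -0.78 with an unadjusted p under 0.05 and an adjusted p of 0.610. The depolymerizing kinesin gene Kif2c rose 2.80-fold in wild-type cells (1.19 and 1.11 against 3.04 and 3.45 CPM), and Hmmr, which encodes a microtubule-binding protein of the spindle poles, rose 2.74-fold (1.39 and 1.06 against 2.89 and 3.91 CPM). Nusap1, which bundles spindle microtubules, rose 2.15-fold with an adjusted p of 0.0253, and the call was lost in DESeq2 and without the first wild-type soft or either wild-type stiff library (adjusted p from 0.00470 to 0.139 over the alternatives).

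All 3 genes of the chromosomal passenger complex, which corrects faulty attachments and guides cytokinesis, were called higher in wild-type cells. Birc5, encoding survivin, had 2.54 and 2.05 CPM on soft and 7.47 and 7.62 CPM on stiff hydrogel in wild-type cells, and 1.05, 1.44, 1.22 and 0.642 CPM in the knockout libraries. The kinase gene Aurkb had 2.85 and 2.55 CPM on soft and 5.16 and 5.89 CPM on stiff hydrogel, and in knockout cells 2.03 and 1.64 CPM on soft and 1.36 and 1.33 CPM on stiff hydrogel. Their log2 changes with stiffness were 1.70 ± 0.24 and 1.02 ± 0.22 in wild-type and -0.39 ± 0.34 and -0.46 ± 0.27 in knockout cells. Cdca8, which encodes borealin, rose 1.96-fold in wild-type cells, from 4.78 and 5.11 to 9.84 and 9.45 CPM. It lies opposite a transcript of similar count (9930104L06Rik), from which reads may come if strand was not used in counting.

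The spindle assembly checkpoint delays anaphase until every kinetochore is attached, and its genes split into a group that moved and a gene that hardly did. Bub1b, encoding BUBR1, went from 2.00 and 1.83 CPM on soft to 5.45 and 5.54 CPM on stiff hydrogel in wild-type cells, and was at 1.37, 1.14, 2.20 and 1.09 CPM in the knockout libraries. Mad2l1, encoding the MAD2 inhibitor of CDC20, went from 7.51 and 8.94 to 14.9 and 14.2 CPM, and was at 8.04, 9.40, 7.73 and 8.15 CPM in knockout cells, about the level of wild-type cells on soft hydrogel. Bub3, whose product recruits BUB1 and BUBR1, had 60.04 and 55.9 CPM in wild-type soft, 68.0 and 63.5 in wild-type stiff, 53.1 and 55.1 in knockout soft and 56.3 and 56.1 CPM in knockout stiff libraries. Its wild-type groups did not overlap and the change passed the adjusted p (0.0252), but at 0.18 ± 0.06 it was below the fold required for a call. The kinase genes Bub1 and Ttk rose 2.27-fold and 2.56-fold (adjusted p = 0.0162 and 0.0169), from 1.27 and 1.11 to 2.31 and 3.15 CPM and from 1.35 and 0.555 to 2.65 and 2.44 CPM. These 2 calls rested on few counts: without the second wild-type stiff library the adjusted p was 0.167 for Bub1, and without the second wild-type soft library it was 0.140 for Ttk, the upper ends of ranges from 0.00256 and 0.000834 over the alternatives.

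The 3 genes of ubiquitin-dependent control were called higher as well. Cdc20, the activator of the anaphase-promoting complex, was at 2.43 and 1.5 CPM in wild-type soft, 6.99 and 4.88 in wild-type stiff, 1.37 and 0.597 in knockout soft and 0.703 and 1.43 CPM in knockout stiff libraries. The groups of the wild type were separate, and the knockout groups overlapped each other. Ube2c, the E2 enzyme that starts the ubiquitin chains, rose 2.55-fold in wild-type cells (2.62 and 1.61 against 5.40 and 5.64 CPM, adjusted p = 0.00360), a call lost in DESeq2 (adjusted p = 0.105, in a range from 3.56e-07 over the alternatives). Cdca3, which promotes the breakdown of the CDK1 inhibitor WEE1, rose 2.92-fold, from 1.46 and 1.5 to 4.44 and 4.22 CPM, and had 1.13, 1.74, 0.984 and 0.741 CPM in the knockout libraries.

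At the kinetochore, 5 of 6 genes were called higher in wild-type cells. Ndc80 and Nuf2, which together form the arm of the complex that grips the microtubule, were at 0.886 and 0.555 CPM and 1.23 and 0.722 CPM on soft hydrogel. On stiff hydrogel they were at 3.18 and 3.61 CPM and 3.91 and 3.51 CPM, which is a 4.56-fold and a 3.67-fold rise (adjusted p = 0.000107 and 0.000188). In knockout cells Ndc80 went the other way, from 0.781 and 0.547 CPM on soft to 0.141 and 0.296 CPM on stiff hydrogel, with groups that did not overlap but an adjusted p of 0.597. Nuf2 was at 0.507 and 0.497 CPM and at 0.328 and 0.198 CPM there (adjusted p = 0.695). Spc25, of the same complex, changed by 1.62-fold in wild-type cells, from 4.24 and 5.72 to 8.34 and 7.62 CPM, and lost the call without the first library of either wild-type group (adjusted p = 0.0965 and 0.0533, in a range from 0.000864 over the alternatives).

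The remaining kinetochore genes showed the same contrast between strong movers and a gene near 0. Cenpe, the motor that moves chromosomes to the equator, rose 2.91-fold in wild-type cells (1.19 and 1.39 against 3.62 and 3.86 CPM), and Cenpf, a large protein of the outer kinetochore, rose 3.32-fold (0.732 and 0.778 against 2.03 and 3.0 CPM). The call of Cenpf was lost without the second wild-type stiff library (log2 1.42, adjusted p = 0.0508, the highest over the alternatives, which began at 5.10e-05). Cenpf was lowest of the tested members in knockout cells on soft hydrogel, with 3 and 4 counts (0.117 and 0.199 CPM), and its knockout change of 1.00 had an interval from -0.46 to 2.51. Cenpa, the histone H3 variant that marks the centromere, was at 3.97 and 3.78 CPM in wild-type soft and 4.73 and 4.27 CPM in wild-type stiff libraries. Its change was 0.21 with an interval from -0.20 to 0.63, and knockout libraries at 4.92, 3.68, 4.45 and 4.55 CPM overlapped both wild-type groups.

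Genes for the central spindle and cytokinesis held the member with the largest wild-type change. Racgap1, the GTPase-activating subunit of centralspindlin, had 1.96 and 2.05 CPM on soft and 9.50 and 9.09 CPM on stiff hydrogel in wild-type cells, and 1.29, 1.19, 0.937 and 1.73 CPM in the knockout libraries. The 4.63-fold rise (log2 2.21 ± 0.23, adjusted p = 3.03e-07) compares with a log2 change of 0.09 ± 0.31 in knockout cells. Its partner in centralspindlin, the kinesin gene Kif23, rose 2.92-fold (0.963 and 1.00 against 2.75 and 3.0 CPM), and Ect2, the RhoA activator that centralspindlin recruits, rose 2.80-fold (3.93 and 4.05 against 10.5 and 11.8 CPM). Anln, which encodes the contractile ring scaffold anillin, was at 3.93 and 2.39 CPM in wild-type soft, 12.97 and 12.5 in wild-type stiff, 1.05 and 0.845 in knockout soft and 1.22 and 1.53 CPM in knockout stiff libraries. Anln, Cenpf and Bub3 were the 3 tested members whose knockout libraries on stiff hydrogel both exceeded those on soft. In 10 tested members both lay below those on soft, and none of these changes was called. The share of all genes separated in this way was not counted, so that these numbers are no result about the members as a set. Prc1, which cross-links the microtubules of the midzone, rose 3.25-fold (4.97 and 4.61 against 15.8 and 15.4 CPM), with 2.54 to 3.08 CPM in knockout cells. Kif20a, the kinesin that carries the passenger complex to the midzone, rose 1.71-fold (adjusted p = 0.0131), which was not called in DESeq2 (0.0503) and ranged from 0.00550 to 0.110 in adjusted p over the alternatives. Kif20a lies opposite Cdc23, and Prc1 opposite Rccd1, so that counts may include reads of both if strand was not used. The same holds for Ccna2, Cdc20, Nusap1 and Cdc25b, opposite Exosc9, Elovl1, Oip5 and Spef1 over 863, 53, 172 and 334 bases. Each of these 4 partners had the higher mean count.

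Top2a, the topoisomerase that untangles sister chromatids, had 6.59 and 6.05 CPM in wild-type soft, 23.0 and 21.1 in wild-type stiff, 2.30 and 3.13 in knockout soft and 3.98 and 2.37 CPM in knockout stiff libraries. The stiff wild-type libraries were the highest by far and the knockout groups overlapped. Mki67, which encodes the Ki-67 coat of mitotic chromosomes and marks cycling cells, had 4.39 and 4.72 CPM in wild-type soft, 18.6 and 16.6 in wild-type stiff, 2.11 and 2.49 in knockout soft and 1.87 and 1.73 CPM in knockout stiff libraries. It rose 3.87-fold in wild-type cells (log2 1.95 ± 0.15, adjusted p = 8.34e-09) and changed by -0.34 ± 0.22 on the log2 scale in knockout cells (adjusted p = 0.714).

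Levels per length put these changes on one scale between genes. Cks2 was the most abundant member in every group (30.6, 31.1, 36.5 and 34.1 read counts per length and library size, RPKM, as means of the wild type on soft and stiff hydrogel and of the knockout on soft and stiff hydrogel) and Bub3 followed (8.28, 9.38, 7.72 and 8.02 RPKM). The other 38 members had means of at most 3.18 RPKM in any group, with Cdc20 at 3.18, Aurka at 3.05 and Cdk1 at 2.88 RPKM leading in wild-type stiff cells. In knockout cells on stiff hydrogel the same genes had means of 0.572, 1.75 and 0.414 RPKM, and Aurka was then the third of the 40.

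The difference between the genotypes in their response to stiffness was tested as an interaction, the knockout change minus the wild-type change. Of the 39 members, 24 were called lower, where 8.21% of all tested genes were, and 0 were called higher, where 8.64% were, with a median of -1.55 beside 0.02 over all genes. The lowest value was that of Ndc80 (-3.80 ± 0.67, adjusted p = 0.000247), followed by Nuf2 (-2.79 ± 0.64) and Mki67 (-2.29 ± 0.27, adjusted p = 2.61e-06). Ndc80 and Nuf2 were below the cut-off of the filter in both knockout stiff libraries. The chromosomal passenger complex, with 3 of 3, the central spindle group, with 5 of 6, and the mitotic chromosome group, with 2 of 2, held the highest shares of called genes. Within the checkpoint group only Mad2l1 was called (-0.96 ± 0.20, adjusted p = 0.00112), while Bub1, Bub1b and Ttk had larger estimates with larger errors (-1.83 ± 0.72, -1.12 ± 0.43 and -1.20 ± 0.82). Cdk1 had an interaction of -1.60 ± 0.41 (adjusted p = 0.00663), and without the first knockout soft library, where it had 2.58 CPM against 0.895 in its replicate, the value was -0.60 and not called (adjusted p = 0.355, in a range from 2.34e-06 over the alternatives). Without that library 16 members were called. Ccna2, Ccnb1, Plk1, Cdc20, Spc25, Kif23 and Anln also lost the call when 1 or more of the libraries was left out. Kif23 passed the filter on low counts only through wild-type libraries, so that its call is no independent result. In DESeq2 with all 8 libraries Cdk1 (adjusted p = 0.0871), Cdc20 (0.0693) and Spc25 (0.126) were not called. Cdc20 was not called with upper quartile scaling (0.0503) or a replicate block (0.0586) either, with adjusted p from 0.00233 to 0.493 over the alternatives, and those of Spc25 ran from 0.0173 to 0.180.

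Knockout and wild-type cells were next compared on each hydrogel, with the same libraries as above. On soft hydrogel 14 members were called lower, where 4.65% of all genes were, and 0 were called higher, where 2.02% were; the median log2 fold change was -0.91 beside -0.00 over all genes. These 14 were Cdk1, Ccna2, Ccnb2, Tpx2, Hmmr, Birc5, Bub1, Ttk, Ube2c, Cenpf, Prc1, Anln, Top2a and Mki67. Of these, Ttk, Cenpf and Bub1 passed the filter on low counts only through wild-type libraries, so that their calls are no independent result. Anln fell 3.36-fold (adjusted p = 0.000142), Ccna2 2.88-fold (0.000927), Top2a 2.36-fold (0.000293) and Mki67 1.99-fold (0.000811). The 4 members with an estimate above 0 were Mad2l1 (0.09 ± 0.14), Ect2 (0.07 ± 0.22), Cenpa (0.16 ± 0.19) and Cks2 (0.26 ± 0.09, adjusted p = 0.0705). The count was not stable: DESeq2 called 7 with all 8 libraries and 6 with the 4 libraries compared, and edgeR called 9 without the first wild-type and 7 without the second knockout library. Ccna2, Anln and Top2a kept the call in every alternative.

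On stiff hydrogel 35 of the 39 members were called lower in knockout cells, where 15.0% of all genes were, and 0 were called higher, where 13.7% were, with a median of -2.48 beside 0.01 over all genes. The largest falls were those of Ndc80 (15.3-fold), Nuf2 (13.7-fold), Ccnb1 (10.2-fold), Bub1 (10.1-fold), Kif23 (9.78-fold) and Mki67 (9.73-fold). All of these but Mki67 were below the cut-off of the filter in both knockout stiff libraries. Their counts there were 3 and 6, 7 and 4, 9 and 8, 3 and 8, and 6 and 6 in that order. The size and order of these falls are therefore uncertain. Cdk1 fell 6.94-fold (log2 -2.80 ± 0.27, adjusted p = 6.98e-08), Top2a 6.90-fold (-2.79 ± 0.19, adjusted p = 6.12e-10) and Racgap1 6.99-fold (-2.80 ± 0.24, adjusted p = 1.85e-08). The smallest called falls were those of Aurka (1.75-fold), Mad2l1 (1.83-fold) and Kif20a (1.89-fold). Ttk, Cenpf, Bub1 and Kif23, all among the 35, passed the filter only through wild-type libraries, so that their calls are no independent result. Cks2, Cenpa, Cdc25b and Bub3 were not called, with values of 0.13 ± 0.10, -0.00 ± 0.19, -0.53 ± 0.70 and -0.23 ± 0.06; for Bub3 the adjusted p was 0.00466 and the fold fell short of the threshold. The comparisons on soft and stiff hydrogel share no library, but each shares its libraries with the comparisons of stiffness.

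**Figure D5:**
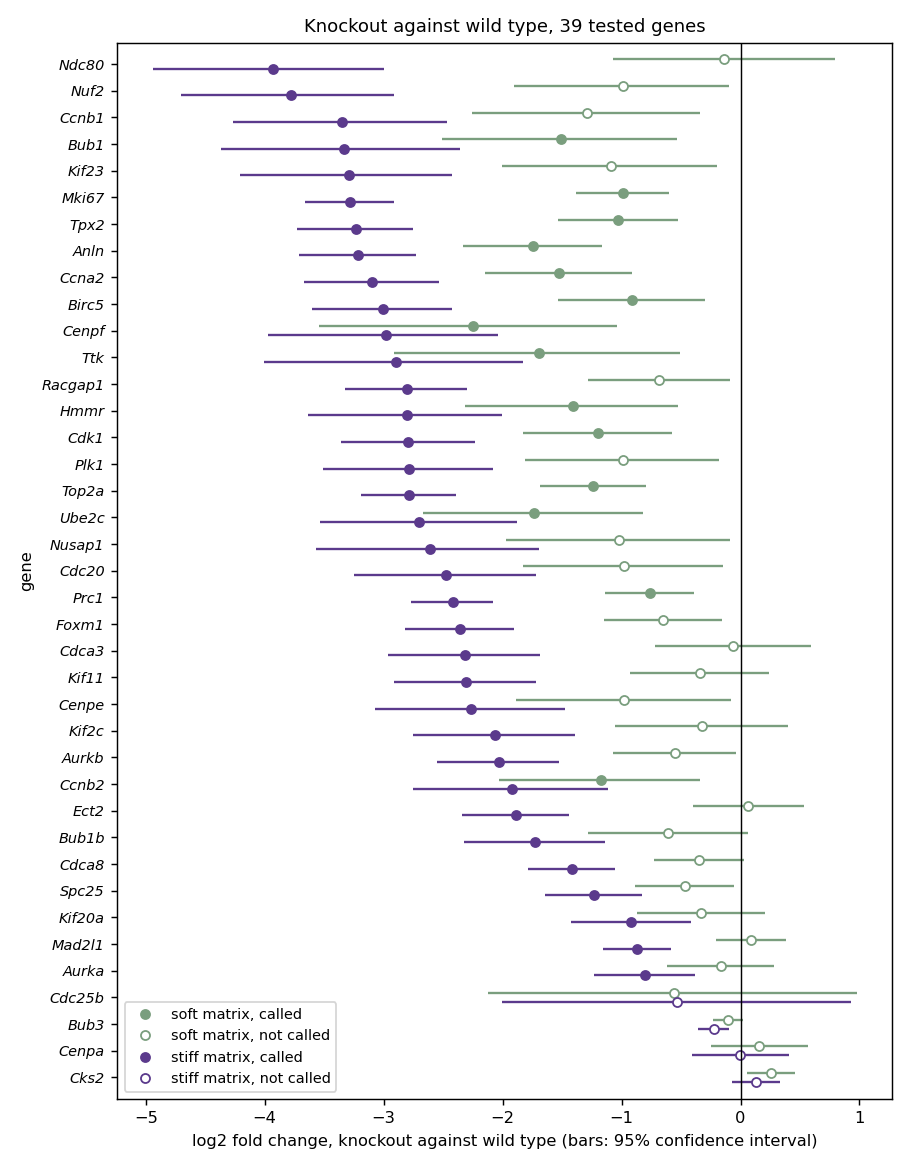
Log2 fold change of knockout against wild type for the 39 tested members (rows, ordered by the value on stiff hydrogel), with 95% confidence intervals, on soft (green) and stiff (purple) hydrogel. Filled circles were called and open circles were not. The values on stiff hydrogel reach -3.93 for Ndc80, those on soft hydrogel reach -2.25 for Cenpf, and Bub3, Cenpa and Cks2 lie near 0 on both.

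By calls, the members fell into few patterns. In 16 genes the level was called higher with stiffness in wild-type cells, lower in knockout than in wild-type cells on stiff hydrogel and lower for the interaction, but not different on soft hydrogel. Another 8, among them Cdk1, Ccna2, Top2a and Mki67, had these calls and were also lower in knockout cells on soft hydrogel. The interaction was not called for 5 members that were called in the other 3 comparisons, nor for 5 called only with stiffness in wild-type cells and between genotypes on stiff hydrogel. Ccnb2 was called lower in knockout cells on both hydrogels and in nothing else, and Cdc25b, Cks2, Bub3 and Cenpa were called in no comparison. A member that is called in one comparison and not in another is not thereby shown to differ between them. The share of all tested genes with each pattern was not counted, and the comparisons share libraries. The patterns thus only sort the members.

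Another 141 genes of mitosis and G2/M were listed by complex, and 134 were tested. In wild-type cells 66 were called higher on stiff hydrogel, where 10.0% of all tested genes were, and 2 lower, where 9.26% were, with a median of 0.55. Of the 66, Sgo2a, Knl1, Ska1 and Troap passed the filter on low counts only through the wild-type stiff libraries, so that they had to differ, and without them 62 of 130 were called. In knockout cells 0 were called in either direction, and at an unadjusted p under 0.05 in edgeR 8 were higher and 9 lower, beside 4.36% and 3.19% of all genes. For the interaction 40 were called lower (8.21% of all genes) and 2 higher (8.64%). On soft hydrogel 6 were lower in knockout cells, or 4.48%, which is near the 4.65% of all genes, and 0 were higher. On stiff hydrogel 74 were lower (15.0% of all genes) and 2 higher (13.7%). Sgo2a, Knl1, Ska1 and Troap were tested in these comparisons too. A call of theirs that rests on the wild-type stiff libraries, for the interaction or on stiff hydrogel, is no independent result. Further genes of these lists passed the filter only through wild-type libraries of both hydrogels, and they were not counted. The same limit holds for their calls between genotypes and for the interaction.

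The same comparison in wild-type cells is given here by list, beside the 10.0% of all genes called higher. Other kinetochore and checkpoint genes had 20 of 33 called higher, led by Kntc1 of the RZZ complex (1.43 and 1.22 CPM on soft against 8.39 and 7.42 CPM on stiff hydrogel, log2 2.56 ± 0.28, adjusted p = 7.19e-07), with Zwint lowest at 0.00 ± 0.04. Other spindle and cytokinesis genes had 20 of 26 called, with Numa1, the dynein anchor at the spindle poles, lowest (-0.04 ± 0.07). The highest estimate in that list was that of Troap, at 0.270 and 0.222 CPM on soft and 1.3 and 0.915 CPM on stiff hydrogel, which was tested only because of the stiff libraries. Condensin, which compacts chromosomes, had 6 of 8, from Ncapg (1.97 ± 0.38) down to Ncaph2 (0.10 ± 0.05). Subunits and regulators of the anaphase-promoting complex had 2 of 17, or 11.8%, near the 10.0% of all genes, with Fbxo5, which encodes the inhibitor EMI1, highest (1.26 ± 0.24, adjusted p = 0.000367) and Cdc16 lowest (-0.11 ± 0.08). Cohesin and separase genes had 5 of 17, with Stag2 lowest (-0.33 ± 0.05). Sgo2a, a protector of centromeric cohesion, had the highest estimate, at 0.270 and 0.167 CPM on soft and 1.3 and 1.42 CPM on stiff hydrogel, and it too was tested only because of the stiff libraries. Without Sgo2a, Knl1, Ska1 and Troap the counts were 18 of 31 for the kinetochore and checkpoint list, 19 of 25 for the spindle list and 4 of 16 for cohesin and separase.

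Of the 12 tested genes for the control of mitotic entry, 10 had a change above 0 with stiffness in wild-type cells. Wee1, the kinase that holds CDK1 inactive, was at 68.9 and 65.9 CPM in wild-type soft, 33.9 and 31.5 in wild-type stiff, 78.3 and 83.8 in knockout soft and 81.0 and 84.6 CPM in knockout stiff libraries. It was lowest in the group where the members were highest, with a log2 change of -1.04 ± 0.06 (adjusted p = 2.76e-10) with stiffness in wild-type cells, 0.03 ± 0.06 in knockout cells and an interaction of 1.08 ± 0.09 (adjusted p = 2.72e-08). Chek1, the checkpoint kinase that inhibits CDC25, rose from 2.85 and 2.50 to 7.57 and 8.54 CPM in wild-type cells (1.58 ± 0.20) and was at 1.45 to 1.98 CPM in knockout cells. In that list 6 of 12 tested genes were called higher in wild-type cells, or 50.0%, beside 10.0% of all genes. Only 1, Wee1, was called lower, or 8.33%, near the 9.26% of all genes.

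The regulators of these promoters were called in part. Mybl2, which encodes B-MYB, rose from 0.924 and 1.06 to 3.52 and 4.32 CPM with stiffness in wild-type cells (1.99 ± 0.35, adjusted p = 0.000154) and had 1.44, 1.19, 1.64 and 0.642 CPM in the knockout libraries. Of its transcript windows of 64 bases, 22.8% occur in Gm3320 too, which leaves the count of Mybl2 uncertain. Rbl2, encoding the p130 pocket protein of DREAM, lay at the other end of that list, at 15.0 and 13.7 against 12.01 and 9.25 CPM (-0.44 ± 0.13, adjusted p = 0.0124), short of the fold required. In that list 3 of 12 were called higher, or 25.0%, beside 10.0% of all genes. Among the 9 genes of centriole duplication, Stil rose (1.91 ± 0.21, adjusted p = 7.24e-07) and Cep192, a scaffold of the centrosome, fell from 58.9 and 52.3 to 32.6 and 38.0 CPM (-0.66 ± 0.08, adjusted p = 1.47e-06). Of the 9 centriole genes 4 were called higher, or 44.4%, beside 10.0% of all genes. Wee1 and Cep192 were the 2 genes called lower in wild-type cells.

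Markers of other liver cells moved with the groups too. Summed over 10 endothelial markers, the level was 80.4 to 82.3 CPM in wild-type soft, 52.9 to 55.7 in wild-type stiff, 104 to 105 in knockout soft and 102 to 114 CPM in knockout stiff libraries. The 10 markers of Kupffer cells and macrophages gave 84.8 to 88.4, 60.1 to 64.9, 123 to 124 and 124 to 125 CPM, and the 10 of stellate cells and fibroblasts gave 37.1 to 37.6, 24.9 to 26.8, 53.0 to 54.2 and 54.6 to 57.5 CPM. The sums of these lists were thus lowest where the mitotic genes were highest. By gene, 10 of 10 endothelial, 9 of 10 Kupffer cell and 7 of 9 tested stellate markers were below 0 with stiffness in wild-type cells. Of all 14279 tested genes 7271 were. The stellate list ran from -4.04 to 0.78 on the log2 scale. The 10 hepatocyte markers summed to 90569 to 94592 CPM in wild-type and 63106 to 63766 CPM in knockout cells, sums that are mostly Alb. By gene, 6 of the 10 were above 0 in knockout against wild-type cells on stiff hydrogel (median 0.12). There 3 were called higher, where 13.7% of all genes were, and 2 lower, where 15.0% were. On soft hydrogel 7 were below 0 (median -0.13), and 3 were called lower, where 4.65% of all genes were. With stiffness in wild-type cells 8 were below 0 (median -0.35), and 3 were called lower, where 9.26% of all genes were. The 10 cholangiocyte markers summed to 575 to 631 and 342 to 369 CPM, with Cftr at 0 in every library. The 7 of them that were tested went apart, from -2.53 to 3.30 on the log2 scale with stiffness in wild-type cells. The 8 lymphocyte markers summed to at most 0.328 CPM, with Cd3e and Gzma at 0 throughout. The part of these cells in the levels of the mitotic genes was not tested.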

How the data were processed

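mRNA of 8 cultures of mouse primary hepatocytes was sequenced, with 2 libraries in each group. The authors aligned paired reads with HISAT2 2.0.5 and counted them per gene with featureCounts; the deposited values are raw counts, which were used as they stand, and whether counting used strand is not given in the sources used here. The labels name the build mm9, while 38 of the 40 members have deposited positions away from those in GRCm38.p6, so no deposited position is printed.

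Counts were fitted with edgeR 4.0.16 (R 4.3.3; TMM scaling, filterByExpr by group, quasi-likelihood test on all 8 libraries with 4 residual degrees of freedom), and p-values were adjusted over the 14279 genes tested. Called genes have an adjusted p under 0.05 and differ by more than 0.5 on the log2 scale in either direction. CPM use TMM-scaled library sizes, and floors and intervals cover counting error or the spread of these libraries only. The 40 members and the other lists were chosen with earlier results of these data known. Named are all members, Yap1 and Wwtr1, and from each other list the genes with the highest and the lowest wild-type change with stiffness, with any called in knockout cells. DESeq2 1.42.0, other scalings, filters and thresholds, fits of 4 libraries, a replicate block, robust empirical Bayes and the omission of each library were tried. The fit was tested on simulated data. The figures were drawn with matplotlib 3.10.9.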

Additional observations from a re-analysis of the deposited data

Results flagged for a closer look

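The response to stiffness differed between wild-type and knockout cells in 24 of the 39 tested members, by the interaction term of the edgeR fit, and in each of them the change was lower in knockout cells. On the log2 scale the interaction was -1.60 for Cdk1, -1.57 for Ccna2, -2.06 for Ccnb1 and -1.71 for Foxm1. Among spindle assembly genes it was -1.80 for Plk1, -2.21 for Tpx2, -1.97 for Kif11 and -1.74 for Kif2c. In the chromosomal passenger complex it was -1.48 for Aurkb, -2.09 for Birc5 and -1.07 for Cdca8. Mad2l1 of the checkpoint was at -0.96, and Cdc20 and Cdca3 were at -1.50 and -2.25. At the kinetochore Ndc80 was at -3.80, Nuf2 at -2.79 and Spc25 at -0.76. For the central spindle and cytokinesis the values were -1.66 for Prc1, -2.20 for Kif23, -2.12 for Racgap1, -1.95 for Ect2 and -1.47 for Anln, and for the mitotic chromosome they were -1.55 for Top2a and -2.29 for Mki67. Not all of these held in every alternative: Cdk1, Cdc20 and Spc25 were not called in DESeq2 with all 8 libraries, Cdc20 was also lost with upper quartile scaling and a replicate block, Mad2l1 and Spc25 fell short of a required log2 change of 1, and 8 of the 24 were lost when 1 library or another was left out. Groups of 2 libraries are too small to single out a library as lying apart.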

How the results depend on the processing

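The members called lower in knockout cells on soft hydrogel (14) numbered 7 in DESeq2 with all 8 libraries, 6 in DESeq2 with the 4 libraries compared and 8 of 26 tested where every library needed at least 10 counts, and from 7 (without the second knockout soft library) to 14 when a library was left out. With at least 10 counts in every library, 23 of 26 were called lower on stiff hydrogel instead of 35 of 39, as fewer members were tested. The members called higher with stiffness in wild-type cells ranged from 23 to 35 over all alternatives and those with a lower interaction from 16 to 27, and in knockout cells stiffness called 0 in every alternative. No called member changed its direction. Differences between the first and second replicate hardly correlated between groups (-0.10 to 0.04), which cannot show whether libraries share a mouse or a preparation. A replicate block gave 34 members higher with stiffness in wild-type cells and 23 with a lower interaction. It gave 11 and 35 lower in knockout cells on soft and stiff hydrogel. Low counts limit precision most for Cdc25b, Cdc25c, Cenpf and Ttk. In the knockout stiff libraries they also limit it for Ndc80, Nuf2, Ccnb1, Bub1 and Kif23.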
